A study of Mus musculus with 12 samples.

Results

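P2X and P2Y receptors are the receptors through which cells sense ATP, ADP and related nucleotides outside the cell. The 10 receptor genes described here were chosen by symbol, with earlier results of these data known. They are 6 P2X genes (P2rx2, P2rx3, P2rx4, P2rx5, P2rx6 and P2rx7) and 4 P2Y genes (P2ry1, P2ry2, P2ry12 and P2ry14) of 22609 genes counted. All 10 were read in every library and all 10 passed the filter on low counts. P2rx1, P2ry4, P2ry6, P2ry10 and P2ry13 were put with the other genes of the nucleotide pathway below. Of these only P2ry6 passed the filter, so the 10 genes do not stand for the whole family. The libraries were made from neurons of the trigeminal ganglion (TG) that had taken up wheat germ agglutinin (WGA), a tracer carried from nerve endings to the cell body, after its injection into the tongue, and that were then sorted by flow cytometry. There were 3 libraries in each of 4 groups of athymic nude Balb/c mice aged 6 to 8 weeks, namely normal males (MN), males with a tongue tumor (MT), normal females (FN) and females with a tongue tumor (FT). Tumors grew in the tongue from 350000 cells of the human oral cancer line HSC3, WGA was given on day 13 and TGs were taken on day 15. A normal library pooled 4 TGs from 2 mice and a tumor library 4 ipsilateral TGs from 4 mice. Nude mice of every group lack mature T cells, and the tumor is a human xenograft. The sample labels describe the normal mice as having received no HSC3 cells, and the study's methods state that they were given normal human oral keratinocytes. Labels and methods differ on the WGA concentration (0.5% in the labels and 1% in the methods). The treatment of the normal tongues was therefore not settled here.

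P2X receptors are trimeric cation channels that ATP opens directly, and P2Y receptors are G protein-coupled receptors for ATP, ADP, UTP or nucleotide sugars. Tissue damage, inflammation and tumors release ATP, and enzymes on the cell surface break it down to adenosine, which acts on its own receptors. In sensory ganglia P2rx3, alone or joined with P2rx2, is the channel known from small nociceptive neurons, and in the tongue P2X2 and P2X3 also carry the signal of taste cells to gustatory nerves, whose cell bodies lie in other ganglia. P2rx4, P2rx7 and P2ry12 are known also from macrophages, microglia or satellite glia.

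The reads on genes totalled 7112207 to 8922011 a library in MN, 7198116 to 8098997 in MT, 7300753 to 7955100 in FN and 4592891 to 7289906 in FT. Levels within a gene are given as CPM, the reads of a gene scaled to the same total of reads on genes in every library, and levels between genes as RPKM, the CPM divided by the exon length in kilobases. The share of multimapped reads was 43.0% to 45.5% in 9 libraries, but 68.4% in the second FT library, 56.0% in the second FN library and 52.6% in the third FT library, which are called FT replicate 2, FN replicate 2 and FT replicate 3 below. Results that rest on these 3 libraries are given with and without them. The summed level of 9 sensory neuron markers, none at 0 in any library, lay between 10700 and 19997 CPM. The summed level of 16 macrophage markers was 32.2 to 47.1 CPM in MN, but 24.3, 34.5 and 294 CPM in the 3 MT libraries, 203 to 454 CPM in FN and 224 to 555 CPM in FT. Neutrophil markers summed to 0.56 to 24.6 CPM in MN, 6.16 to 31.5 in MT, 17.1 to 76.2 in FN and 70.6 to 193 in FT. Nociceptor genes summed to 5224 to 15068 CPM over the libraries and large myelinated neuron genes to 590.1 to 3594 CPM. Because RNA of many sorted cells was pooled, fewer cells with a receptor and less of its RNA per cell cannot be told apart.

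P2rx3 was by far the most abundant receptor, with a mean of 170.1 RPKM ± 65.0 (SD, n = 12 libraries). It was followed by P2rx4 (15.5 ± 4.71), P2ry1 (12.4 ± 4.14) and P2ry2 (9.02 ± 3.22), and these 4 stood in the same order in the means of all 4 groups. P2rx3 exceeded P2rx4 in 12 of 12 libraries, by a median of 12.0-fold (range 3.07 to 16.5). P2rx4 lay above P2ry1 in 11 of 12 libraries and P2ry1 above P2ry2 in 11 of 12, although the median ratios were only 1.14 and 1.31.

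The remaining 6 receptors were low. Mean RPKM was 4.49 ± 1.44 for P2rx6, 4.24 ± 1.51 for P2rx5, 2.08 ± 0.871 for P2rx2, 1.98 ± 0.715 for P2ry14, 1.26 ± 0.566 for P2ry12 and 1.16 ± 0.442 for P2rx7 (SD, n = 12). Neighbours in this lower part of the order often changed places. P2rx6 exceeded P2rx5 in 6 of 12 libraries, P2rx2 exceeded P2ry14 in 7 of 12, and P2ry12 exceeded P2rx7 in 7 of 12, so these pairs did not differ beyond the spread between libraries.

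**Figure D1:**
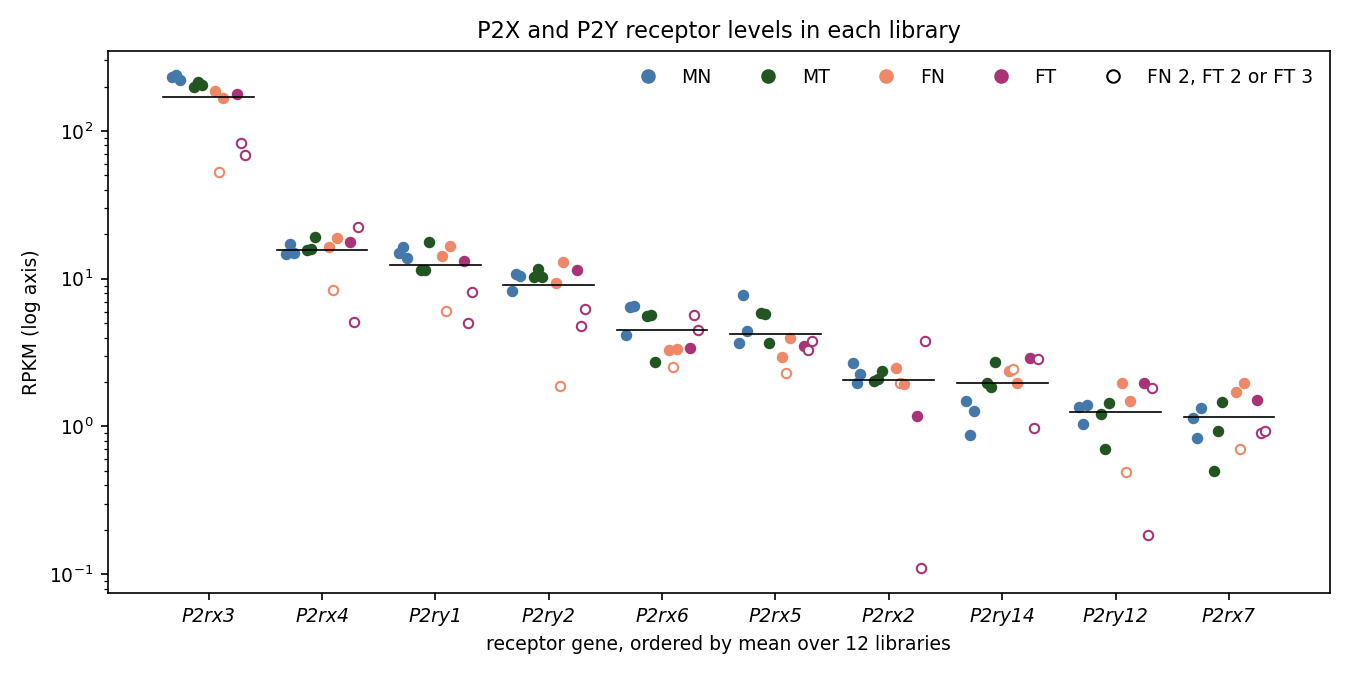
RPKM on a log axis of the 10 receptor genes in each of the 12 libraries, coloured by group, with the mean over all libraries as a line and FN replicate 2, FT replicate 2 and FT replicate 3 as open points. P2rx3 lies above every other receptor in every library, and the lowest point is an open one for 8 receptors.

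Within the 6 P2X genes, P2rx3 made up 66.0% to 89.7% of the summed RPKM (median 87.2%, 12 libraries). Its share was lowest in FT replicate 3, where P2rx4 reached 21.5%. P2rx4 held a median of 7.28%, and none of P2rx2, P2rx5, P2rx6 and P2rx7 exceeded 5.76% in any library. P2rx2, the partner of P2rx3 in heteromeric channels, held a median of 0.942%. Within the 4 P2Y genes, which leave out P2ry6, no receptor dominated in this way. P2ry1, an ADP receptor, held 42.7% to 57.2% and P2ry2, a receptor for ATP and UTP, 17.2% to 45.1%. P2ry14, the receptor for UDP-glucose and other UDP-sugars, held 3.02% to 22.8% and P2ry12, the ADP receptor known as the target of antiplatelet drugs, 1.67% to 9.53%.

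**Figure D2:**
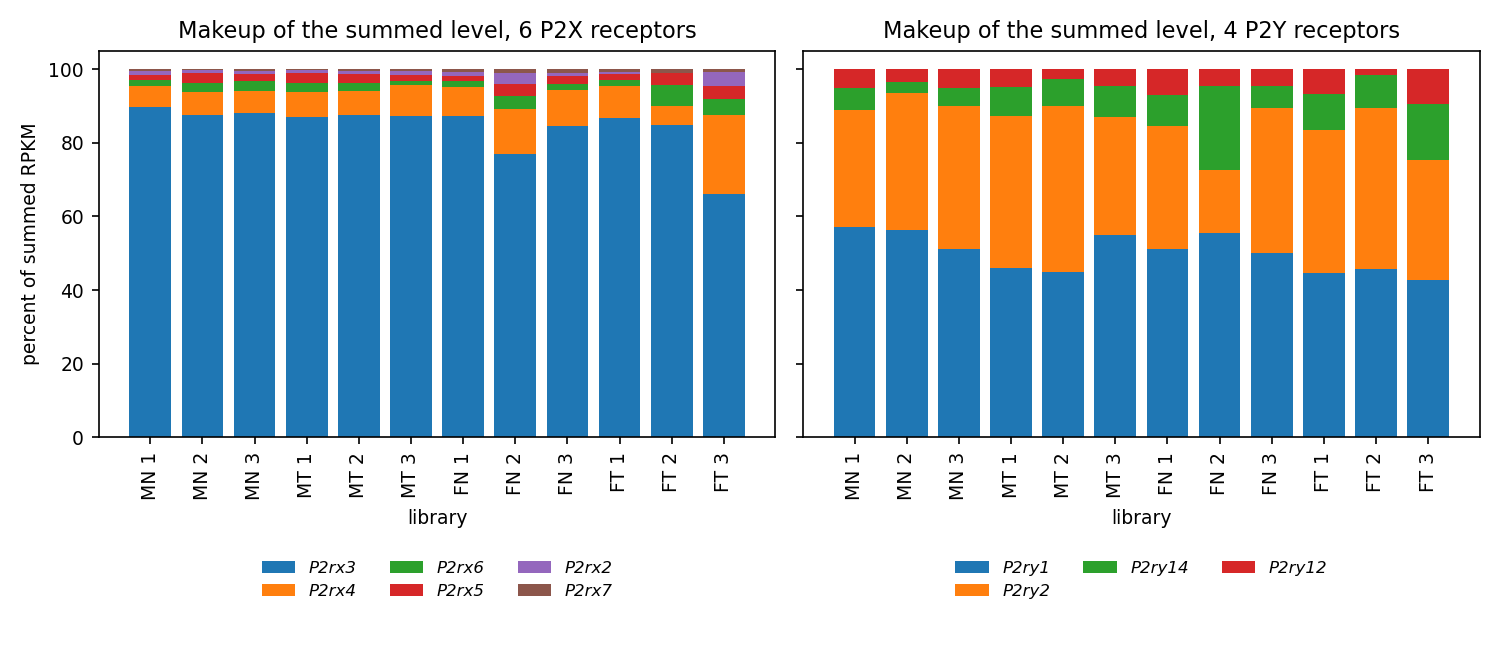
Percent of the summed RPKM of the 6 P2X genes (left) and of the 4 P2Y genes (right) held by each gene, as stacked bars, 1 bar for each library. P2rx3 fills at least 66.0% of every P2X bar, while P2ry1 and P2ry2 share most of every P2Y bar.

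The 3 libraries with many multimapped reads also stood apart in these receptors. FN replicate 2 lay below the whole range of the other 9 libraries for 7 of 10 receptors, FT replicate 2 for 6 and FT replicate 3 for 3, and above it for 0, 0 and 2 receptors. The share of all 13835 tested genes below that range was 49.9%, 53.1% and 41.2% in the same libraries, and the share above it 27.97%, 26.4% and 30.1%. P2rx3, P2ry1 and P2ry2 were below the range in all 3 of these libraries. Over the other 9 libraries P2rx3 varied 1.43-fold from lowest to highest, P2rx4 1.30-fold, P2ry1 1.54-fold and P2ry2 1.58-fold, whereas P2rx7 varied 3.96-fold and P2ry14 3.32-fold.

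The receptors were then compared between groups in 6 ways, namely the tumor effect in each sex, the sex difference in each condition, the difference of the tumor effect between the sexes and its average over them. Counts of all 12 libraries were fitted with the quasi-likelihood method of edgeR, and p was adjusted by Benjamini-Hochberg over all genes tested. None of the 10 receptors had an adjusted p under 0.05 in any of the 6 comparisons, and 0% of all genes did. DESeq2 gave 0 receptors in the 6 comparisons as well, where it called 0.0145% of all genes in MT versus MN, 0.15% in FN versus MN, 1.86% in FT versus MT, 0.00723% in the averaged tumor effect and 0% in the other comparisons. Limma-voom with sample quality weights called 1 receptor, P2rx6 in FN versus MN (log2 fold change -0.82, SE 0.24, adjusted p = 0.0493), where it called 5.99% of all genes. It called 0 receptors in MT versus MN, where 0.34% of all genes passed, and 0 in the other comparisons, where no gene passed.

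At an unadjusted p under 0.05, edgeR gave P2ry14 in FN versus MN, where 5.57% of all genes passed, and 0 receptors elsewhere. The share of all genes was 0.426% in MT versus MN, 3.82% in FT versus FN, 12.1% in FT versus MT, 1.47% for the difference of the tumor effect and 1.12% for its average. Where a mean above 5 RPKM in 1 of the groups and a change above 1.5-fold were required as well, 0 receptors passed in the 6 comparisons, against 0.152%, 2.18%, 3.7%, 8.17%, 0.622% and 0.499% of all genes in MT versus MN, FT versus FN, FN versus MN, FT versus MT, the difference and the average. P2rx2, P2rx7, P2ry12 and P2ry14 stayed below 5 RPKM in the mean of every group and could not pass this rule, whatever their change. Over the 12 libraries the same held for P2rx5 and P2rx6 in FT versus FN and for P2rx6 in FT versus MT. Fitted log2 fold changes above 0 were found for 3 receptors in MT versus MN (median of the 10, -0.10), 5 in FT versus FN (0.00), 3 in FN versus MN (-0.15) and 4 in FT versus MT (-0.15). Over all genes the shares above 0 were 51.2%, 44.4%, 54.3% and 54.1% with medians of 0.01, -0.06, 0.07 and 0.07. For the difference of the tumor effect 3 receptors and 44.7% of all genes lay above 0, and for its average 5 receptors and 46.5%. For the fits of all groups without 1 library, given below, the share of all genes past the unadjusted threshold was not computed.

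The first question was whether the tumor changed receptor expression in males. P2rx3, on chromosome 2 (NCBIM37, 84838740 to 84877619, minus strand), stood at 645, 663 and 616 CPM in the 3 MN libraries and at 551, 595 and 567 CPM in the 3 MT libraries. All 3 MT libraries were below all 3 MN libraries. Its log2 fold change was -0.15 (SE 0.40, 95% interval -1.01 to 0.71, adjusted p = 1) in the 12 libraries. In a fit of the 6 male libraries alone, none of which is among the 3 that stood apart, it was -0.15 with a narrower interval of -0.34 to 0.04 (adjusted p = 0.788). Both 95% intervals for P2rx3 between MT and MN included 0.

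P2ry14 (chromosome 3, 58918548 to 58934546, minus strand) stood at 2.67, 1.57 and 2.30 CPM in MN and at 3.52, 3.33 and 4.94 CPM in MT, from 14 to 20 reads and 24 to 40 reads. All MT values were above all MN values. The fitted log2 fold change was 0.87 (SE 0.48, 95% interval -0.15 to 1.88, adjusted p = 1) in the 12 libraries. Across the 6 male libraries alone it was 0.87 (SE 0.34, 95% interval 0.11 to 1.64, adjusted p = 0.701), and its unadjusted p was under 0.05, as for 6.92% of all genes, of which 0.045% passed after adjustment. The macrophage markers summed to 24.3, 34.5 and 294 CPM in MT replicates 1, 2 and 3, against 32.2 to 47.1 CPM in MN, and their part in the P2ry14 values was not tested. P2ry14 lies within the span of Med12l on the other strand and shares no exon base with it, and Med12l was at 29.7 to 33.0 CPM in MN and 26.8 to 30.8 CPM in MT. Whether reads from introns of Med12l were counted to P2ry14 was not tested.

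Without FT replicate 2, a library of neither group, P2ry14 passed the unadjusted threshold in the fit of all groups too, with a log2 fold change of 0.87. The value ranged from 0.68 to 1.03 when each library was left out in turn.

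P2rx3 and P2ry14 were 2 of 10 receptors without overlap between MT and MN, against 13.1% of all genes. The other 8 had log2 fold changes between -0.26 (P2rx6) and 0.15 (P2ry2) over the 12 libraries. P2ry1 was at 57.6, 63.4 and 53.5 CPM in MN and 44.6, 44.7 and 68.7 CPM in MT, so that the groups overlapped. P2rx4 was at 48.9, 56.9 and 49.5 CPM in MN and 51.6, 52.4 and 63.7 CPM in MT. In the fit of the male libraries alone the 95% interval of the log2 difference was -0.14 to 0.38 for P2rx4, -0.48 to 0.22 for P2ry1 and -0.17 to 0.46 for P2ry2. A 2-fold change in either direction lies outside these intervals, as it does for P2rx3, P2rx2 (-0.67 to 0.53), P2rx5 (-0.72 to 0.64), P2rx6 (-0.90 to 0.36), P2rx7 (-0.98 to 0.63) and P2ry12 (-0.95 to 0.66).

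The second question was the same comparison in females. P2rx6 (chromosome 16, 17561978 to 17577893, plus strand), a subunit that forms few channels on its own, had the largest log2 fold change of the 10 receptors between FT and FN. It stood at 13.2, 10.0 and 13.4 CPM in FN and at 13.6, 22.6 and 18.0 CPM in FT. The groups did not overlap, but FT replicate 1 exceeded the highest FN library by little, and the higher values came from FT replicates 2 and 3. This gave a log2 fold change of 0.70 (SE 0.41, 95% interval -0.18 to 1.57, adjusted p = 0.994). When the 3 libraries that stood apart were left out, with FT replicate 1 the only FT library, it was 0.04, so that its size rested on those libraries. Without FT replicate 1 it was 0.94 (95% interval 0.04 to 1.85, adjusted p = 0.296) and passed the unadjusted threshold, with only FT replicates 2 and 3 left in the group. Without FT replicate 2 it was 0.33. P2rx6 was the only receptor of 10 without overlap between FT and FN, against 2.49% of all genes.

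P2rx3 was at 519, 148 and 465 CPM in FN and at 497, 233 and 192 CPM in FT. Each group thus held at least 1 library near 500 and at least 1 near 200 CPM or below. Its log2 fold change was -0.19 (SE 0.40, 95% interval -1.05 to 0.67, adjusted p = 0.994). FN replicates 1 and 3 and FT replicate 1, the 3 female libraries that did not stand apart, lay together at 465 to 519 CPM.

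P2rx2 (chromosome 5, 110768831 to 110772168, minus strand) showed the widest spread of any receptor in FT. It was at 4.90, 3.91 and 3.84 CPM in FN and at 2.33, 0.218 and 7.53 CPM in FT, where FT replicate 2 held a single read. Over all libraries the log2 fold change was -0.29 (SE 0.67, 95% interval -1.72 to 1.15, adjusted p = 0.994). Without FT replicate 3 it was -1.65 (95% interval -2.99 to -0.30, adjusted p = 0.464), past the unadjusted threshold, and without FT replicate 2 it was 0.20 (95% interval -0.83 to 1.23). Against MT, at 4.02, 4.17 and 4.69 CPM, P2rx2 in FT likewise went from -0.23 over all libraries to -1.59 without FT replicate 3 and 0.25 without FT replicate 2. The direction of P2rx2 in FT therefore turned with 1 library.

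The 4 P2Y genes overlapped between FN and FT. P2ry1 was at 55.8, 23.4 and 64.7 CPM in FN and 50.9, 19.4 and 31.7 CPM in FT (log2 fold change -0.42, SE 0.36, adjusted p = 0.994). P2ry2 was at 27.9, 5.61 and 39.2 CPM in FN and 34.2, 14.4 and 18.7 CPM in FT. P2ry14 was at 4.27, 4.44 and 3.56 CPM in FN and 5.21, 1.74 and 5.16 CPM in FT, so that 2 FT libraries were above FN and FT replicate 2 was below it. P2ry12 was at 4.65, 1.17 and 3.56 CPM in FN and 4.66, 0.436 and 4.32 CPM in FT. In the fit of all 12 libraries, a 2-fold change in at least 1 direction lay inside the 95% interval for 9 of 10 receptors in females. The exception was P2rx4 (-0.76 to 0.97). With FN and FT alone, the lowest and highest bounds over the receptors were -2.15 and 1.94.

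The effect of the tumor was not shown to differ between the sexes for any receptor. The difference, females minus males, had an adjusted p of 1.00 for all 10. The largest was 0.95 on the log2 scale for P2rx6 (SE 0.57, 95% interval -0.27 to 2.18), and that of P2ry14 was -0.87 (SE 0.67, 95% interval -2.30 to 0.55). Averaged over the sexes, the log2 tumor effect lay between -0.28 (P2ry1) and 0.43 (P2ry14), and every interval included 0. In the same average fitted without FN replicate 2 and FT replicate 2, P2ry14 was at 0.69 (95% interval 0.14 to 1.23, adjusted p = 0.484) and was the 1 receptor with an unadjusted p under 0.05, as for 9.32% of all genes.

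**Figure D3:**
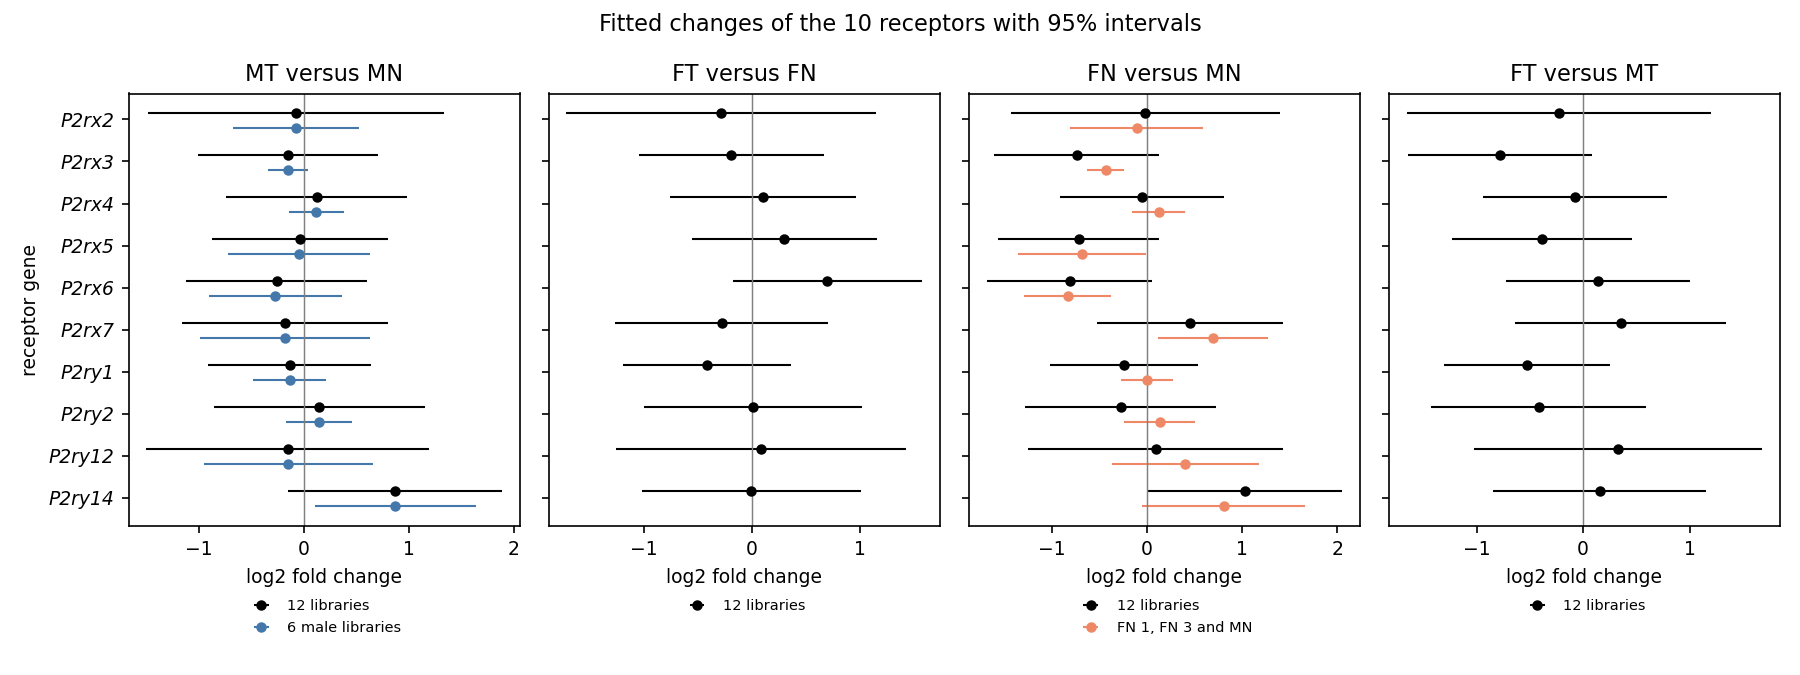
Log2 fold changes of the 10 receptor genes with 95% intervals in 4 comparisons, from the 12 libraries (black), from the 6 male libraries alone (blue) and from MN with FN replicates 1 and 3 alone (orange). The intervals of the 12 libraries cross 0 except that of P2ry14 in FN versus MN, that of P2ry14 lies above 0 in the blue fit, and in the orange fit those of P2rx3, P2rx5 and P2rx6 lie below 0 and that of P2rx7 above it.

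The third question was whether normal females and males differed, with genes of the sex chromosomes left out. All 10 receptors lie on autosomes. P2ry14 was at 4.27, 4.44 and 3.56 CPM in FN against 2.67, 1.57 and 2.30 CPM in MN. Every FN library was above every MN library, the same MN libraries that P2ry14 in MT was set against. Its log2 fold change was 1.03 (SE 0.48, 95% interval 0.01 to 2.05, adjusted p = 0.809). The unadjusted p, 1 of 10 under 0.05, went above 0.05 without MN replicate 1, 2 or 3, MT replicate 1, 2 or 3, FN replicate 1 or 2, or FT replicate 1, with log2 fold changes of 0.81 to 1.19 when each of the 12 libraries was left out in turn. With FN replicates 1 and 3 and MN alone it was 0.81 (95% interval -0.05 to 1.66, adjusted p = 0.279). Macrophage markers summed to 203 to 454 CPM in these FN libraries and 32.2 to 47.1 CPM in MN, and satellite glia markers to 896 to 1768 CPM in FN and 964 to 1130 CPM in MN, and their part in the P2ry14 difference was not tested.

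P2rx3 stood at 519, 148 and 465 CPM in FN against 645, 663 and 616 CPM in MN. All FN libraries were below all MN libraries, with FN replicate 2 far below. The fitted log2 fold change was -0.74 (SE 0.40, 95% interval -1.60 to 0.12, adjusted p = 0.809). When FN replicate 2 was left out and the other groups kept, the log2 fold change was -0.42 (SE 0.33, adjusted p = 1.00), with the spread still estimated over FT replicates 2 and 3 as well. When FN replicates 1 and 3 were compared with MN alone, a fit chosen after the data were seen, it was -0.43 (SE 0.09, 95% interval -0.63 to -0.24, adjusted p = 0.0144), which is the lowest adjusted p of P2rx3 over the fits of this comparison, the highest being 1.00. In that fit 5.53% of all genes had an adjusted p under 0.05 and 20.4% an unadjusted one.

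Some neuronal and other cell type markers also differed between FN and MN. As sums, nociceptor genes were at 7097, 15068 and 7485 CPM in FN replicates 1, 2 and 3 and at 7059 to 8413 CPM in MN. Sensory neuron markers summed to 13826, 17991 and 14438 CPM in FN and to 14803 to 15738 CPM in MN. FN replicate 2, the lowest library for P2rx3, was thus the highest FN library in both sums. Scn10a, Scn11a and Mrgprd of 8 nociceptor genes, Avil and Snap25 of 9 sensory neuron markers and Nefh and Ntrk3 of 5 large myelinated neuron genes were lower in every FN than in every MN library, while Tac1 was higher. Higher in every FN library were 8 of 16 macrophage, 2 of 6 neutrophil, 2 of 5 myelinating Schwann cell, 1 of 6 endothelial, 1 of 5 fibroblast, 1 of 5 pericyte and 0 of 7 satellite glia markers, with none lower. FN replicate 2 was left out in the comparison that gave P2rx3 its adjusted p of 0.0144. Without it, 6 of 9 sensory neuron, 4 of 5 large myelinated neuron and 3 of 8 nociceptor genes were lower, with 1 nociceptor gene higher. Higher were 15 of 16 macrophage, 6 of 7 satellite glia, 6 of 6 endothelial and 4 of 5 fibroblast markers. So were 3 of 5 myelinating Schwann cell, 3 of 5 pericyte and 2 of 6 neutrophil markers. Of all genes, 9.66% were higher and 10.2% lower in every FN library. Without FN replicate 2 these shares were 23.2% and 13.9%. The part of these markers in the differences of P2rx3 and of the other receptors between FN and MN was not tested.

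P2rx6 was at 13.2, 10.0 and 13.4 CPM in FN and at 16.7, 25.8 and 25.9 CPM in MN. The groups did not overlap, and MN replicate 1 was the nearest to FN. This was a log2 fold change of -0.81 (SE 0.41, 95% interval -1.69 to 0.06, adjusted p = 0.809), and it was -0.83 (SE 0.21, adjusted p = 0.0383) with FN replicates 1 and 3 and MN alone. In the fit of all groups P2rx6 passed the unadjusted threshold without MN replicate 1 (95% interval -1.99 to -0.01), FT replicate 1 (-0.82) or FT replicate 2 (-0.82).

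P2rx6 shares 554 exon bases, 13.9% of its exon length, with Slc7a4 on the opposite strand. Slc7a4, a member of the cationic amino acid transporter family, was at 45.5, 21.5 and 56.0 CPM in FN and 65.9, 69.6 and 57.9 CPM in MN, and its log2 fold change was -0.61 (SE 0.39, adjusted p = 0.809), or -0.40 (SE 0.14, adjusted p = 0.111) with FN replicates 1 and 3 and MN alone. Reads from the shared bases cannot be assigned to P2rx6 with certainty, and the strand setting of the counting was not given in the sources used here. P2rx3 shares 51 exon bases, 1.83% of its exon length, with Ssrp1 on the opposite strand, and Ssrp1 was at 65.0, 28.3 and 74.9 CPM in FN and 57.9, 66.8 and 56.9 CPM in MN.

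P2rx5 (chromosome 11, 72973923 to 72986187, plus strand) was at 7.04, 5.48 and 9.45 CPM in FN and 8.86, 18.5 and 10.7 CPM in MN. The groups overlapped, and MN replicate 2 was the highest of all 12 libraries. It had a log2 fold change of -0.72 (SE 0.39, adjusted p = 0.809), and it was -0.33 without MN replicate 2. P2rx7, a channel that opens at high ATP and is known for its part in the release of interleukin-1 beta from macrophages, was at 9.43, 3.91 and 11.0 CPM in FN and 6.33, 4.60 and 7.34 CPM in MN. FN replicates 1 and 3 were above all MN libraries and FN replicate 2 below them. Its log2 fold change was 0.45 (SE 0.46, adjusted p = 0.814), and 0.69 (SE 0.27, adjusted p = 0.156) with FN replicates 1 and 3 and MN alone. Macrophage markers summed to 454 and 203 CPM in FN replicates 1 and 3 and satellite glia markers to 1766 and 1768 CPM, and their part in the P2rx7 values was not tested.

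P2rx3, P2rx6 and P2ry14 were 3 of 10 receptors without overlap between FN and MN, against 19.8% of all genes. When FN replicate 2 was left out, P2rx7 and P2ry12 joined them, which made 5 of 10 against 37% of all genes. P2rx2, P2rx4, P2ry1, P2ry2 and P2ry12 had log2 fold changes between -0.28 (P2ry2) and 0.09 (P2ry12). With FN replicates 1 and 3 and MN alone, P2ry1 was at 0.00 (95% interval -0.28 to 0.27), P2rx4 at 0.12 (95% interval -0.15 to 0.40) and P2ry2 at 0.13 (95% interval -0.24 to 0.51). These 3 receptors, among the 4 most abundant, thus differed by less than 1.5-fold between the sexes in those 5 libraries.

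**Figure D4:**
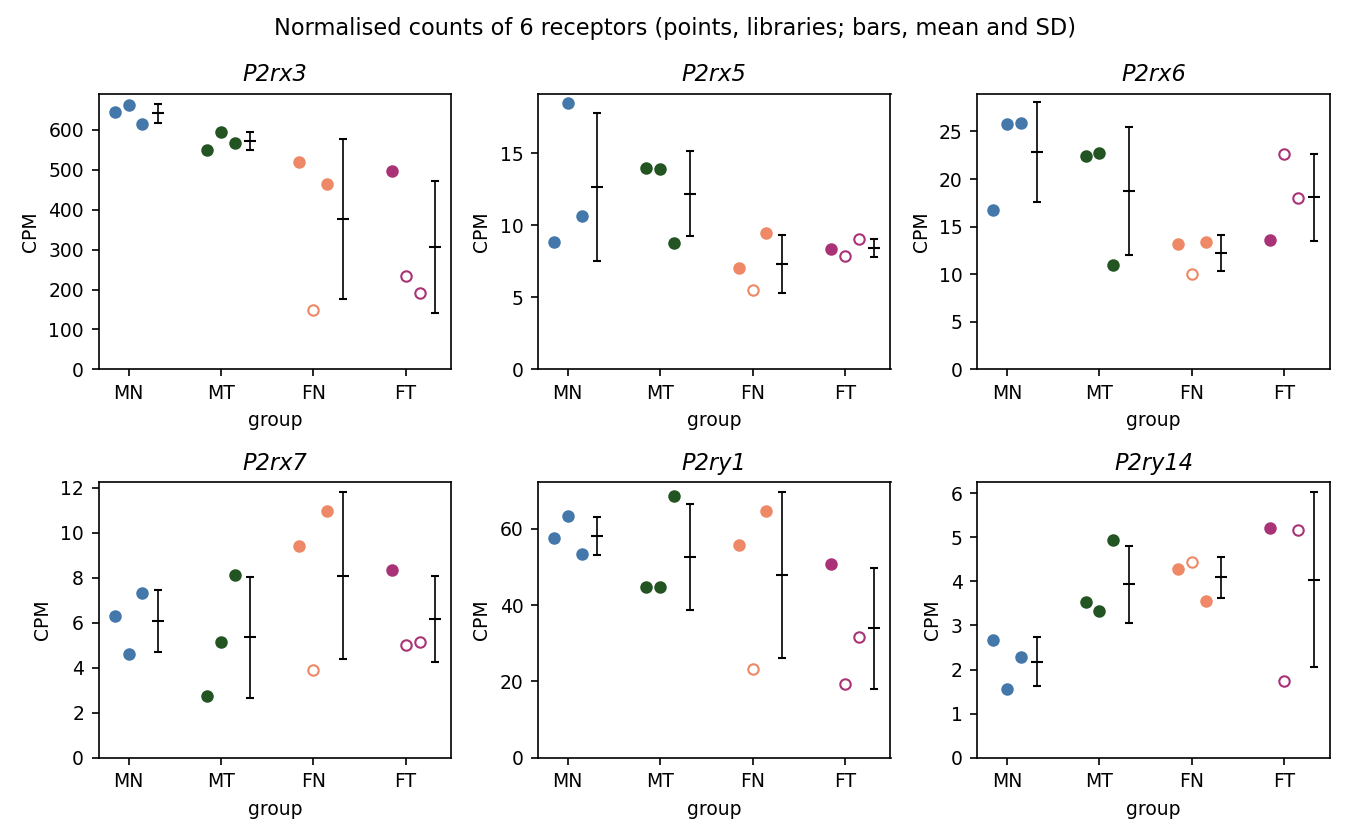
CPM of P2rx3, P2rx5, P2rx6, P2rx7, P2ry1 and P2ry14 in each library by group, with the mean and SD beside the points and FN replicate 2, FT replicate 2 and FT replicate 3 as open points. The 3 MN libraries are the highest for P2rx3 (616 to 663 CPM) and the lowest 3 of the males for P2ry14 (1.57 to 2.67 CPM).

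The fourth question was whether tumor-bearing females and males differed. P2rx3 was at 497, 233 and 192 CPM in FT and at 551, 595 and 567 CPM in MT, and the groups did not overlap. It was 1 of 10 receptors of which this was true, against 17.6% of all genes. The fitted log2 fold change was -0.78 (SE 0.40, 95% interval -1.64 to 0.08, adjusted p = 0.433). It was -1.15 (95% interval -2.09 to -0.21, adjusted p = 0.106) without FT replicate 1 and -0.79 without FN replicate 2, both past the unadjusted threshold, and -0.26 (95% interval -0.53 to 0.00) without the 3 libraries that stood apart, when FT was a single library. The size of the P2rx3 difference between FT and MT therefore depended on FT replicates 2 and 3. The other 9 receptors had log2 fold changes between -0.53 (P2ry1) and 0.35 (P2rx7).

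P2rx4, the channel known from macrophages and microglia as well as neurons, was at 58.3, 16.8 and 74.5 CPM in FT and 51.6, 52.4 and 63.7 CPM in MT. FT replicate 3 was the highest and FT replicate 2 the lowest of the 12 libraries. The macrophage sum was 555 CPM in FT replicate 3, against 224 CPM in FT replicate 2, and their part in the P2rx4 values was not tested.

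**Figure D5:**
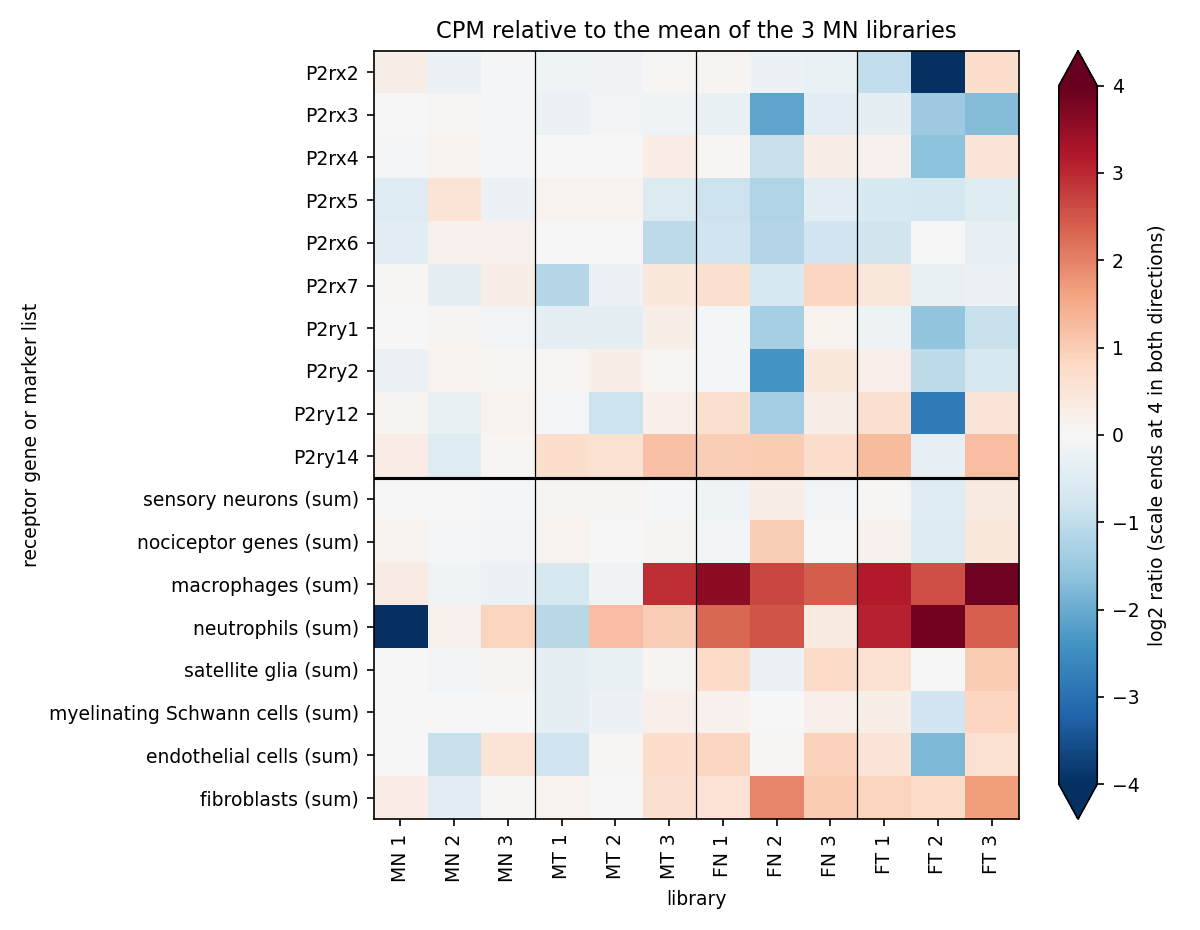
Log2 ratio of the CPM in each library to the mean of the 3 MN libraries, for the 10 receptor genes (above the line) and for the summed CPM of 8 lists of cell type markers (below the line). P2rx3 is below MN in each of the other 9 libraries, P2ry14 is above it in 8 of them, and the macrophage sum is high in MT replicate 3 and in all 6 female libraries.

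The genes whose pattern over the 12 libraries was most like that of P2rx3 were Ogdh, Sh3bp5l, Coro2b, Kazn and Pdcd6ip, among 9541 other tested genes with a mean of at least 10 CPM. Likeness was the root mean square difference of log2 CPM after each gene was centred on its mean, and it was 0.11 for Ogdh and 0.13 for Pdcd6ip, against 0.71 for the deviations of P2rx3 itself and a median of 0.72 over all these genes. For P2ry1 the closest were Tbl2, Glt25d1, Tnpo1, C87436 and C330019G07Rik, with root mean square differences of 0.15 to 0.17 against a median of 0.62. The 12 points of each pattern come from the same libraries, and Ogdh, for example, ranged from 132 to 704 CPM. P2rx3 and P2ry1 were both below the range of the other libraries in FN replicate 2, FT replicate 2 and FT replicate 3. Likeness was not computed without these libraries, so genes low in the same libraries could rank as close for that alone. P2rx2, P2rx7, P2ry12 and P2ry14 had a mean below 10 CPM and were not candidates. None of the receptors that were candidates was among the close genes, and the nearest of them to P2rx3 was P2ry1 with a root mean square difference of 0.37.

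The other genes of the nucleotide pathway were 27 in number, of which 21 passed the filter on low counts. P2rx1, P2ry4, P2ry10, P2ry13, Adora3 and Slc17a9, the vesicular nucleotide transporter, were too low to be tested. None of the 21 had an adjusted p under 0.05 in any comparison of the 12 libraries, where edgeR gave 0 at an unadjusted p under 0.05 in MT versus MN and FT versus FN, 1 in FN versus MN (5.57% of all genes), 3 in FT versus MT (12.1%) and 0 in the difference and the average of the tumor effect. DESeq2 gave 0 at an adjusted p under 0.05 in each comparison, and 2 in FN versus MN (7.3% of all genes) and 7 in FT versus MT (14.9%) at an unadjusted one, while limma-voom gave 3 in FN versus MN at an adjusted p under 0.05 (5.99%) and 0 in the other comparisons. Fitted log2 fold changes above 0 were found for 5 of the 21 in MT versus MN (median -0.11), 9 in FT versus FN (-0.08), 6 in FN versus MN (-0.27) and 6 in FT versus MT (-0.31).

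P2ry6, a UDP receptor known from macrophages, was the 1 gene in FN versus MN. It was at 6.66, 1.30 and 1.92 CPM in FN and 0.844, 0.448 and 0.230 CPM in MN, from 10 to 53 and 2 to 6 reads. This was a log2 fold change of 2.73 (SE 1.16, 95% interval 0.24 to 5.22, adjusted p = 0.809), and the macrophage sums given above for FN and MN moved with it, with a part that was not tested. In FT versus MT, Entpd3, an enzyme that removes phosphates from ATP and ADP, had a log2 fold change of -1.02 (SE 0.47, adjusted p = 0.402), Enpp1 of 0.99 (SE 0.43, adjusted p = 0.386) and Alpl of 1.08 (SE 0.49, adjusted p = 0.400). Entpd3 was at 179, 49.0 and 72.5 CPM in FT and 221, 229 and 190 CPM in MT, with the low values in FT replicates 2 and 3.

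Adk, an enzyme that clears adenosine, Acpp, Adora1 and Panx1, a channel that releases ATP, were the pathway genes with the highest mean CPM beside Entpd3. Acpp, the ectonucleotidase that turns AMP to adenosine in nociceptors, was at 560, 574 and 586 CPM in MN and 406, 502 and 612 CPM in MT. Adora1, the adenosine A1 receptor, was at 230, 248 and 238 CPM in MN and at 201, 191 and 175 CPM in MT, with no overlap. Its log2 fold change in the 6 male libraries alone was -0.32 (SE 0.10, adjusted p = 0.544). In that fit 5 of 20 pathway genes had an unadjusted p under 0.05, against 6.92% of all genes, and all 5 were lower in MT, namely Adora1, Adora2b at -0.66, Panx2 at -0.71, Entpd6 at -0.35 and Ada at -0.87. Their adjusted p was 0.05 or more in each case. With FN replicates 1 and 3 and MN alone, Adora1 was at -0.44 (adjusted p = 0.0247), Entpd3 at -0.41 (adjusted p = 0.0276) and P2ry6 at 3.05 (adjusted p = 0.0162), 3 of 21 pathway genes with an adjusted p under 0.05 against 5.53% of all genes.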

How the data were processed

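Neurons were retrogradely labeled from the tongue and flow-sorted, and the authors made libraries by SMART-seq2, read 50 bases from one end (CASAVA 1.8.2), aligned to mm9 with TopHat2 and counted with HTSeq. The deposited values are raw counts per gene symbol, without normalization. Versions, annotation and strand setting were not given in the sources used here. Rows that name no gene (76.3% to 88.8% of reads) were left out. RPKM used merged exon lengths of GENCODE M1 (NCBIM37), which matched 95.7% of symbols. Library sizes were 4592891 to 8922011 reads. Counts of 3 or fewer were taken as the limit of detection, for counting error only. Counts were fitted with edgeR 4.0.16 (R 4.3.3, TMM, filterByExpr with a minimum count of 10 and total of 15, quasi-likelihood test) over 12 libraries in 4 groups, with Benjamini-Hochberg adjustment over 13835 genes, or 13360 without X and Y between the sexes. DESeq2 1.42.0, limma-voom (limma 3.58.1), other size factors, no filter, a replicate block, fits of the groups compared and fits leaving libraries out were alternatives. Replicate numbers were not taken to pair samples. Tests were also run on simulated counts with changes set between MT and MN only, in which no library was made to stand apart. The outcome is not given here. Libraries pool mice, and p-values measure the spread between pools. The members, the marker and pathway lists and the tests were chosen with earlier results of these data known. Named genes were the members, pathway genes with an unadjusted p under 0.05 or the highest CPM, genes overlapping a member, and the 5 closest in pattern to the most abundant P2X and P2Y gene.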

Additional observations from a re-analysis of the deposited data

How the results depend on the processing

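The 60 log2 fold changes (10 receptors in 6 comparisons) changed sign in 61 of 720 fits that left out 1 library and in 47 of 470 other fits, and the cause was not tested. None of these had a log2 fold change above 0.42 in size over the 12 libraries. P2rx3 and P2ry14 in MT versus MN, P2rx6 in FT versus FN, P2rx3, P2rx5, P2rx6, P2rx7 and P2ry14 in FN versus MN and P2rx3 in FT versus MT kept their sign in every fit. An adjusted p under 0.05 was reached 3 times, with limma-voom for 1 receptor in FN versus MN, and with FN replicates 1 and 3 and MN alone, chosen after the data were seen, for 2.

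Counts of receptors are given with the share of all genes in brackets. At an unadjusted p under 0.05, limma-voom gave 1 in MT versus MN (11.3%), 5 in FN versus MN (21.1%) and 1 in FT versus MT (9.02%). The fit without FN replicate 2 and FT replicate 2 gave 1 (2.28%), 2 (6.08%) and 1 (22.5%) in these comparisons and 1 (9.32%) in the averaged tumor effect, and that also without FT replicate 3 gave 1 (7.25%), 3 (15.2%), 1 (8.27%) and 1 (6.22%). Only the groups compared gave 1 in MT versus MN (6.92%) and 2 in FN versus MN (5.8%), FN replicates 1 and 3 with MN gave 4 (20.4%), and in FN versus MN no filter gave 0 (5.08%) and the replicate block 0 (3.82%). By the criteria, FN versus MN gave 2 with limma-voom (3.82%), 1 without FN replicate 2 and FT replicate 2 (2.27%), 1 also without FT replicate 3 (3.19%), 1 with only the groups compared (3.3%), 2 with FN replicates 1 and 3 and MN (3.79%) and 1 with a minimum RPKM of 1 (5.05%). FT versus MT gave 1 with limma-voom (7.84%) and 1 without FN replicate 2 and FT replicate 2 (13.9%). Leaving out 1 library in turn gave 0 to 1 at the unadjusted threshold in FT versus FN, MT versus MN, the averaged tumor effect and FT versus MT and 0 to 2 in FN versus MN, and 0 to 1 by the criteria in FT versus FN, FN versus MN and FT versus MT. With the longest transcript as length, 6 of 10 receptors kept their place in MT. Same-numbered samples did not deviate together throughout, with correlations of -0.36 to 0.57 and 5 of 18 over 0.1. The highest was that of FN replicate 1 and FT replicate 1.

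The fold changes that turned are given by setting. With limma-voom they were P2rx5 0.088 in MT versus MN, P2ry2 -0.22, P2ry12 -0.077 and P2ry14 0.33 in FT versus FN, P2rx4 0.11 and P2ry2 0.054 in FN versus MN, P2rx4 0.073 and P2rx6 -0.31 in FT versus MT, P2ry2 -0.014 in the averaged tumor effect. With the replicate block they were P2rx5 0.0069 in MT versus MN, P2ry12 -0.020 in FT versus FN, P2rx2 0.019 and P2ry12 -0.063 in FN versus MN. Without FN replicate 2 and FT replicate 2 they were P2rx2 0.30, P2ry2 -0.27 and P2ry14 0.50 in FT versus FN, P2rx4 0.12 and P2ry2 0.13 in FN versus MN, P2rx2 0.26, P2rx4 0.29 and P2rx6 -0.22 in FT versus MT, P2rx2 0.38 and P2rx4 0.17 in the difference of the tumor effect, P2rx2 0.11, P2ry2 -0.060 and P2ry12 0.038 in the averaged tumor effect. Without FT replicate 3 as well they were P2rx3 0.021 and P2ry14 0.42 in FT versus FN, P2rx4 0.12 and P2ry2 0.13 in FN versus MN, P2rx4 0.0013, P2rx6 -0.53 and P2ry2 0.024 in FT versus MT, P2rx3 0.17 in the difference of the tumor effect, P2rx5 -0.0061, P2rx6 -0.12 and P2ry12 0.021 in the averaged tumor effect. Without the filter they were P2ry2 -0.0056 in FT versus FN. With DESeq2 size factors in edgeR they were P2ry14 0.022 in FT versus FN, P2rx3 0.014 and P2rx4 0.047 in the difference of the tumor effect. With DESeq2 they were P2ry14 0.038 in FT versus FN, P2rx3 0.014 and P2rx4 0.048 in the difference of the tumor effect. With only the groups compared they were P2ry14 0.032 in FT versus FN. With FN replicates 1 and 3 and MN alone they were P2rx4 0.12 and P2ry2 0.13 in FN versus MN. Leaving out 1 library at a time also turned the values that follow. In MT versus MN P2rx2 ranged from -0.17 to 0.049, P2rx5 from -0.24 to 0.35, P2rx6 from -0.44 to 0.028, P2rx7 from -0.58 to 0.12, P2ry12 from -0.34 to 0.089. In FT versus FN P2rx2 ranged from -1.65 to 0.20, P2rx3 from -0.56 to 0.062, P2rx4 from -0.32 to 0.46, P2ry2 from -0.42 to 0.49, P2ry12 from -0.23 to 0.52, P2ry14 from -0.21 to 0.27. In FN versus MN P2rx2 ranged from -0.11 to 0.10, P2rx4 from -0.23 to 0.14, P2ry1 from -0.46 to 0.013, P2ry2 from -0.77 to 0.15, P2ry12 from -0.26 to 0.42. In FT versus MT P2rx2 ranged from -1.59 to 0.25, P2rx4 from -0.50 to 0.28, P2rx6 from -0.23 to 0.38, P2ry14 from -0.058 to 0.42. In the difference of the tumor effect P2rx2 ranged from -1.57 to 0.27, P2rx3 from -0.41 to 0.21, P2rx4 from -0.44 to 0.34, P2rx5 from -0.057 to 0.54, P2rx7 from -0.39 to 0.30, P2ry2 from -0.57 to 0.34, P2ry12 from -0.082 to 0.67. In the averaged tumor effect P2rx2 ranged from -0.86 to 0.063, P2rx4 from -0.097 to 0.29, P2ry2 from -0.14 to 0.32, P2ry12 from -0.19 to 0.19.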
